A study of Arabidopsis thaliana with 4 samples.

Results

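The genes described here are 60 Arabidopsis loci that encode basic helix-loop-helix (bHLH) transcription factors, chosen as a family around AT5G50915, whose fall with GR24 in these data was already known. A gene counted as measured where the platform's probe table gave a probe set to it alone, and the probe set with the highest mean over the 4 arrays stood for a gene with several. By this rule 27 of the 60 genes were measured, among 22746 probe sets tested, and the other 33 are not analysed here. The 27 had no filter on low values applied to them.

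Every seedling was a 14-day-old whole seedling of the Col strain carrying max3, a mutation in a carotenoid cleavage dioxygenase that plants need to make strigolactones. Seedlings of 2 arrays were exposed to 1 µM GR24 for 90 min, and a mock treatment with the solvent DMSO, also for 90 min, supplied the remaining 2. Per the series text the experiment was done 2 times, starting from newly prepared seedlings, so replicate 1 and replicate 2 are treated as pairs of one mock and one GR24 array. Since the controls also carry max3, the comparison shows what added GR24 does in a plant that lacks its own strigolactones. It has no wild-type arm. The level of MAX3 itself is not analysed here.

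Proteins of the bHLH family bind DNA as dimers, mostly at short E-box or G-box motifs, through a basic region that precedes the helix-loop-helix used for pairing. In plants they act in light and brassinosteroid signalling, iron uptake, root hair and vascular development, stomata and anthers, often as mixed dimers of related members. GR24 is a synthetic strigolactone. Strigolactones are perceived through D14 and the F-box protein MAX2, which lead to the breakdown of SMXL repressors, and GR24 as a racemic mixture can also act through the related receptor KAI2.

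Array medians ran from 7.03 to 7.06 on the log2 scale. RMA, the authors' normalization, brings arrays to a common distribution, so these medians do not measure array quality. The shoot markers LHCB4.1 and LHCB4.2, both light-harvesting proteins, lay between 12.3 and 13.4 on every array, and they were the 2 of 23 shoot markers measured. Of the root markers 9 of 24 were measured, with array values from 3.81 to 9.11. The 1 measured of 10 seed and anther markers, AT4G20420, lay between 4.24 and 4.42. In RNA from whole seedlings, fewer cells of a type and less RNA per cell cannot be told apart.

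Of the 27 measured bHLH genes, 1 fell with GR24, 0 rose and 26 did not pass the test. The gene that fell was AT5G50915, around which the list was built, so this count is not evidence about the family. Over all probe sets 0.303% passed in the same fit, 0.158% lower and 0.145% higher with GR24. An unadjusted p under 0.05 was found for 2 of the 27, against 7.47% of all probe sets. The paired fit was made in limma, with treatment and replicate number as terms. Its two-sided p-values were adjusted by the Benjamini-Hochberg method across the 22746 probe sets, and an adjusted p under 0.05 counted as passing. Each value after ± is a standard error from that model (n = 2 pairs), and it rests mainly on a variance shared by all probe sets (7.62 prior against 1 residual degree of freedom).

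AT5G50915, also known as bHLH137, belongs to group XII, which holds the cryptochrome-interacting CIB factors and the brassinosteroid-linked BEE and HBI factors that promote cell elongation and flowering. Its log2 values were 6.83 and 7.11 on the mock arrays and 5.95 and 6.39 on the GR24 arrays, replicate 1 first. Both GR24 arrays lay below both mock arrays. GR24 minus mock was -0.88 in pair 1 and -0.71 in pair 2. The mean difference of -0.80 ± 0.10 (95% interval -1.04 to -0.56, adjusted p = 0.021 in limma with n = 2 pairs) corresponds to a level 1.74-fold lower. By unadjusted p it ranked 43 among the probe sets. The call was lost when 16 was added to the linear values before taking log2 (-0.68, adjusted p = 0.0672 in limma) and in the fit without pairing (adjusted p = 1 in limma). With 2 pairs, an exact paired permutation test of this gene could not give a two-sided p below 0.5.

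**Figure D1:**
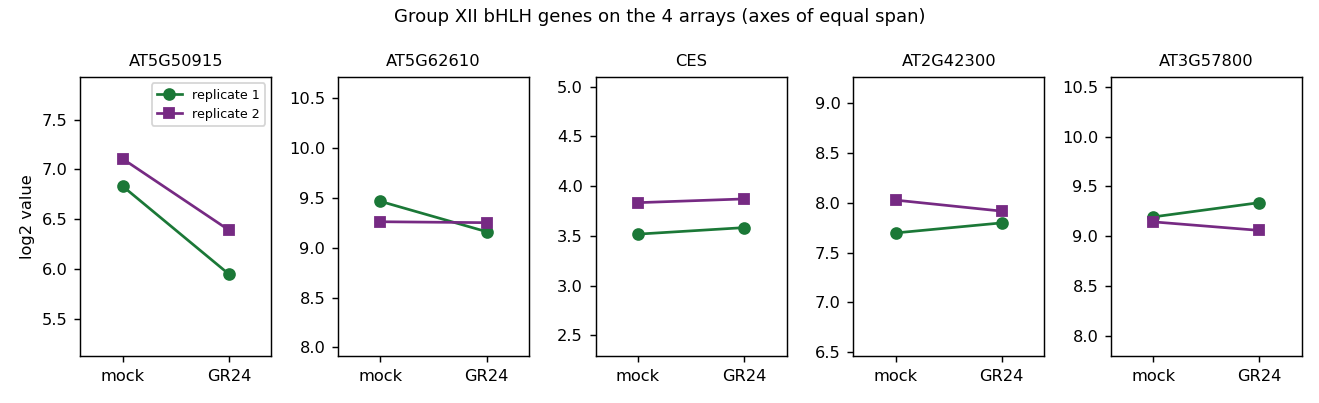
Log2 values of the 5 measured group XII genes on each array. Lines join the mock and GR24 array of one replicate number, and all panels span the same log2 distance. AT5G50915 goes down in both pairs, from 6.83 to 5.95 and from 7.11 to 6.39, while no other gene of the group has a mean difference beyond -0.16.

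The other 4 measured genes of group XII did not pass, and 8 of its 13 genes were not measured. CES, or CESTA, which activates a brassinosteroid synthesis gene, was dim. Its values were 3.52 and 3.83 with mock and 3.58 and 3.87 with GR24. It was slightly higher with GR24 in both pairs, but the treatments overlapped and the mean difference was 0.05 ± 0.10 (95% interval -0.18 to 0.28). AT5G62610 had 9.47 and 9.26 with mock and 9.16 and 9.25 with GR24. Both its GR24 arrays lay below both mock arrays, yet the distance in pair 2 was only -0.01, and the mean was -0.16 ± 0.11 (95% interval -0.41 to 0.10, adjusted p = 0.856 in the paired limma model).

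AT2G42300 and AT3G57800, further group XII genes, moved in opposite directions in the pairs. AT2G42300 had 7.70 and 8.03 with mock and 7.80 and 7.92 with GR24, a mean difference of -0.0049 ± 0.11 (95% interval -0.25 to 0.24). AT3G57800 had 9.19 and 9.14 with mock and 9.34 and 9.06 with GR24, a mean difference of 0.03 ± 0.11 (95% interval -0.22 to 0.27). The lower limits of all 4 intervals ran from -0.41 to -0.18. The difference for AT5G50915 was -0.80, with a 95% interval from -1.04 to -0.56. That gene was chosen with its fall known, so setting the other 4 against it is no test. Whether AT5G50915 differed from each of them was not tested as such. Values of different probe sets are not compared in level, since each has its own hybridisation strength.

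Across the family the GR24 differences were small. Below 0 lay 16 of the 27 genes, against 45.2% of all probe sets. The median over the 27 genes was -0.02, beside 0.01 over all probe sets, and the median absolute difference was 0.05 beside 0.08. Between the 5% and 95% points of all probe sets, -0.23 and 0.22, lay 24 of the 27 genes. AT5G50915 and AT5G57150 lay below that range and AT1G10585 above it. The median within pair 1 was -0.03 and within pair 2 it was -0.01.

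**Figure D2:**
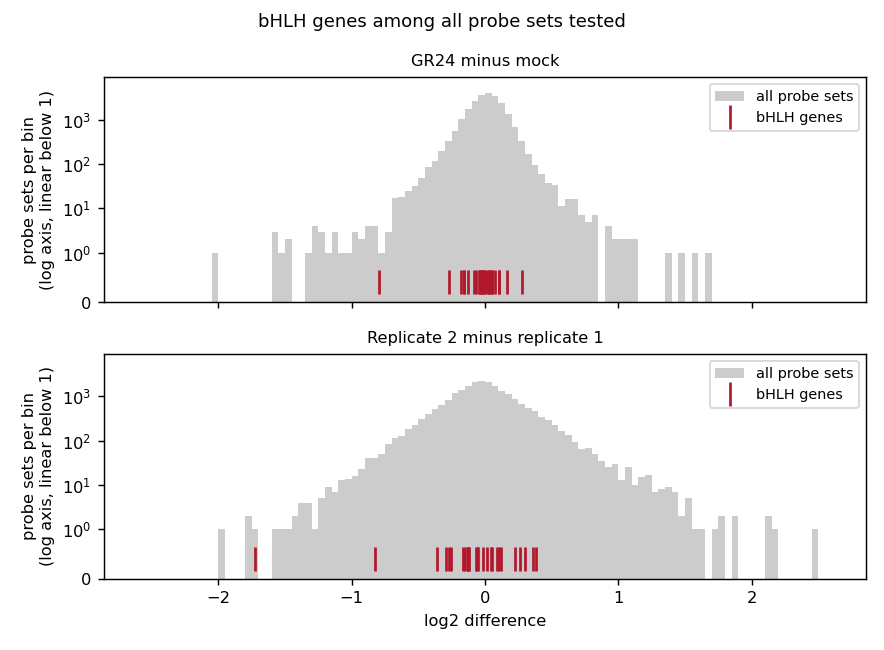
Histograms of the log2 difference of all 22746 probe sets (grey, count per bin on a log axis that is linear below 1) with the 27 bHLH genes as red ticks, for GR24 minus mock (top) and replicate 2 minus replicate 1 (bottom). One bHLH gene stands at -0.80 in the upper panel, and 2 stand at -1.72 and -0.83 in the lower panel.

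The direction was often not shared by the pairs. Of the 27 genes, 11 had the same sign in both pairs (40.7%, against 52% of all probe sets). These were 8 lower in both, against 23.3% of probe sets, and 3 higher in both, against 28.7%. In 16 genes the pairs had opposite signs. Arrays of the treatments did not overlap for 3 genes, AT5G50915, AT5G57150 and AT5G62610, all lower with GR24, where 10.2% of probe sets had both GR24 arrays below both mock arrays. For 0 of the 27 were both GR24 arrays above both mock arrays, a pattern found in 12.9% of probe sets.

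**Figure D3:**
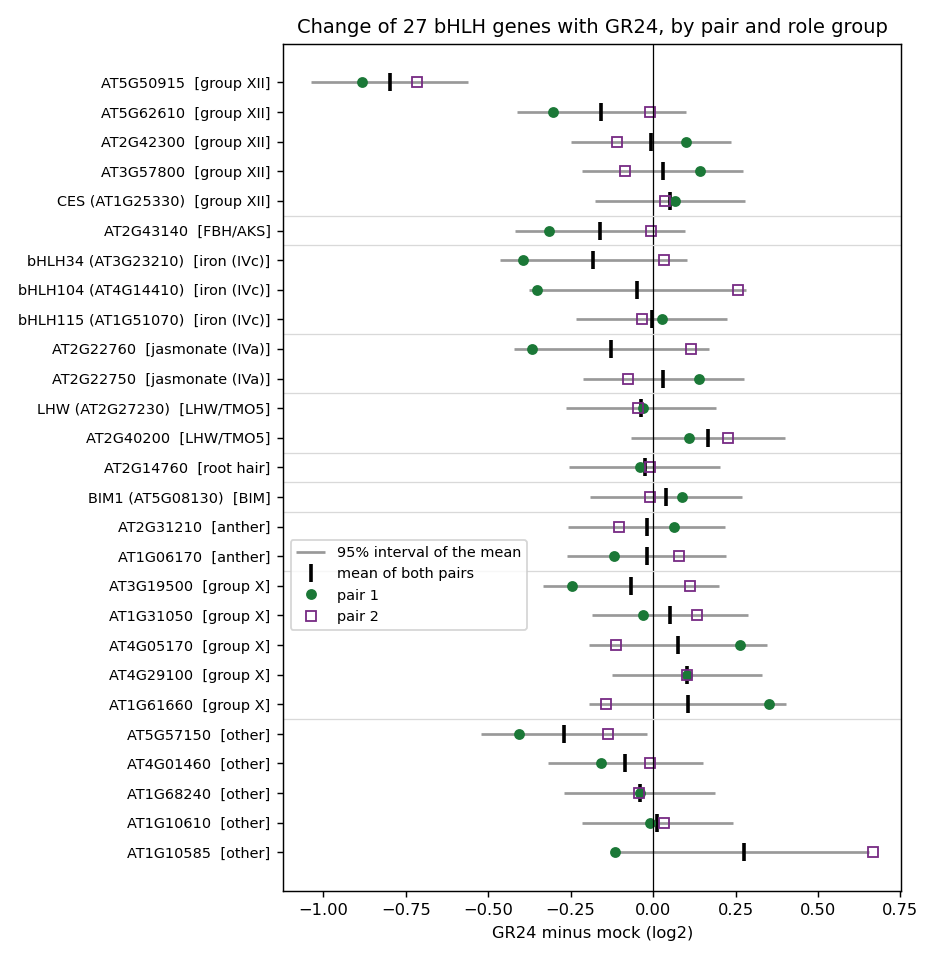
GR24 minus mock (log2) for each of the 27 measured bHLH genes, ordered by role group. Filled circles show pair 1, open squares pair 2, black ticks their mean and grey lines its 95% interval from the paired limma model. The interval of AT5G50915 runs from -1.04 to -0.56, that of AT5G57150 ends at -0.02, and the other 25 include 0.

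AT5G57150 came second by p. Its values were 7.04 and 6.65 with mock and 6.63 and 6.51 with GR24, so that the lower mock array and the higher GR24 array were almost equal. The difference was -0.41 in pair 1 and -0.14 in pair 2, with a mean of -0.27 ± 0.11 (95% interval -0.52 to -0.02, adjusted p = 0.616 in the paired limma model). It did not pass the adjusted test.

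Of group IVc, 3 genes are among the 60 listed. They encode factors that switch on the iron deficiency response by activating the smaller group Ib bHLH genes and PYE. None of the 3 passed with GR24. bHLH34 had 6.81 and 6.54 with mock and 6.41 and 6.58 with GR24, which is -0.40 in pair 1 and 0.03 in pair 2. bHLH104 had 11.1 and 9.95 with mock and 10.7 and 10.2 with GR24, which is -0.35 in pair 1 and 0.26 in pair 2. Both thus lay lower with GR24 in the first pair and not in the second. bHLH115 was nearly level at 9.11 and 9.15 with mock and 9.13 and 9.11 with GR24, with a mean difference of -0.0041 ± 0.10 (95% interval -0.23 to 0.23).

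Targets and partners of these iron factors were looked at from a separate list, of which 5 of 24 genes were measured and 0 passed with GR24 in limma, none of them with an unadjusted p under 0.05. Their median difference was 0.02. All 5 had opposite signs in the pairs, as did 10918 of all 22746 probe sets. Besides, PYE, ILR3 and BHLH101 also encode bHLH proteins but are outside the 60. PYE, which restrains the iron response, differed by 0.02 ± 0.10, ILR3, a partner of bHLH104, by 0.06 ± 0.10 and BHLH101 of group Ib by -0.0049 ± 0.10. AT3G12900, a scopoletin hydroxylase of iron-related coumarin synthesis, had the smallest p of the list with a difference of 0.13 ± 0.11 (adjusted p = 0.888 in the paired limma model).

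AT2G22750 and AT2G22760 are neighbouring group IVa genes whose proteins act in jasmonate signalling and promote breakdown of the iron regulator FIT. AT2G22760 had 5.77 and 5.38 with mock and 5.40 and 5.49 with GR24, so pair 1 was lower by a difference of -0.37 and pair 2 higher by 0.11. AT2G22750 was dim, from 3.33 to 3.53, with a mean difference of 0.03 ± 0.11. Neither passed.

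LHW pairs with TMO5-type factors to drive divisions in young vascular tissue and to raise cytokinin synthesis there. Its arrays lay close together, at 7.97 and 8.10 with mock and 7.94 and 8.05 with GR24, and the mean difference was -0.04 ± 0.10 (95% interval -0.27 to 0.19). AT2G40200, grouped here with the TMO5 relatives, was also dim, at 4.28 and 3.95 with mock and 4.39 and 4.18 with GR24. It was higher with GR24 in both pairs, by 0.11 and 0.23, but did not pass (0.17 ± 0.10, adjusted p = 0.812 in the paired limma model). Of 9 genes downstream of or linked to this pair, 1 was measured. That gene, AT5G09460, a bHLH gene of the SAC51 class outside the 60, had a difference of 0.34 ± 0.13 and did not pass (adjusted p = 0.535 in limma).

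AT2G43140 belongs with the FBH and AKS factors, known for activating the flowering gene CONSTANS and for guard cell opening under abscisic acid control. Its values were 9.14 and 8.62 with mock and 8.82 and 8.61 with GR24. Pair 1 differed by -0.32 and pair 2 by -0.0049, so the mean of -0.16 ± 0.11 came nearly all from one pair. It was the 1 measured gene of 5 in that group, and none of the 8 genes listed as targets of the group was measured.

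BIM1, a partner of the brassinosteroid factor BES1, stood at 8.98 and 9.13 with mock and 9.06 and 9.12 with GR24, a mean difference of 0.04 ± 0.10 (95% interval -0.19 to 0.27). AT2G14760, a root hair factor of the RSL class, stood between 4.23 and 4.38 with a difference of -0.02 ± 0.10. AT1G06170 and AT2G31210, which act in the anther tapetum, were dim on every array, from 3.23 to 3.56, with differences of -0.02 each. None of these 4 genes passed.

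Of the 7 genes of group X, 5 were measured and none passed. By the probe sets used, AT4G29100 was the one gene of this group with the same sign in both pairs. It was at 8.21 and 8.47 with mock and 8.31 and 8.57 with GR24. Its difference was 0.10 in each pair, within a 95% interval of the mean from -0.12 to 0.33. AT1G61660, also known as bHLH112 and linked to salt and drought tolerance, had 7.19 and 7.42 with mock and 7.55 and 7.28 with GR24, or 0.35 in pair 1 and -0.14 in pair 2. AT4G05170 had 0.26 and -0.11 and AT3G19500 had -0.25 and 0.11 in pairs 1 and 2. By these probe sets the pairs thus mostly did not share a direction. The median was 0.08, with means from -0.07 to 0.11. Of the 5 means 4 lay above 0, as did 12456 of all 22746 probe sets.

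AT1G31050, also of group X, was the one gene with more than 1 probe set. The brighter one, used here, had 5.42 and 5.72 with mock and 5.39 and 5.86 with GR24, a difference of 0.05 ± 0.10. The dimmer one had 4.19 and 4.81 with mock and 4.78 and 4.92 with GR24, a difference of 0.35 ± 0.13 (adjusted p = 0.535 in the paired limma model). The dimmer one was higher with GR24 in both pairs, by 0.59 and 0.11, while the brighter one had -0.03 and 0.13. The probe sets thus gave different sizes, and neither passed.

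The remaining genes had no role group here. AT4G01460 was lower in both pairs, by differences of -0.16 and -0.01, AT1G68240 by -0.04 in each, and AT1G10610 was at -0.01 and 0.03. Their array values ranged from 5.55 to 5.76, from 4.57 to 4.73 and from 4.37 to 4.69. AT1G10585 had the widest gap between pairs. It stood at 9.66 and 7.54 with mock and at 9.54 and 8.21 with GR24, which gives -0.11 in pair 1 and 0.67 in pair 2 and a mean of 0.28 ± 0.17 that did not pass.

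For most of these genes the replicates lay farther apart than the treatments. The absolute difference between replicates exceeded that between treatments in 21 of the 27, as it did in 68.4% of all probe sets. With treatment as the block, 4 of the 27 passed between replicate 2 and replicate 1 (14.8%, against 16.7% of all probe sets), 2 higher and 2 lower in replicate 2. Among all probe sets 8.14% were higher and 8.59% lower. Arrays of the replicates did not overlap for 15 of the 27, against 58.6% of all probe sets. The share that passed in the family was thus near that of all probe sets. The seedlings of a replicate and the handling of its arrays cannot be told apart here.

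AT1G10585 was lower in replicate 2 by a log2 difference of -1.72 ± 0.17 (adjusted p = 0.000902 in limma with n = 2 pairs), which is 3.31-fold. The drop was present in both treatments, with differences of -2.12 among mock and -1.33 among GR24 arrays. bHLH104 was lower in replicate 2 by -0.83 ± 0.14 (adjusted p = 0.0081 in limma), or 1.77-fold, with -1.13 among mock and -0.52 among GR24 arrays. In both genes the mock arrays were farther apart than the GR24 arrays, and replicate 1 was above replicate 2 on all arrays.

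**Figure D4:**
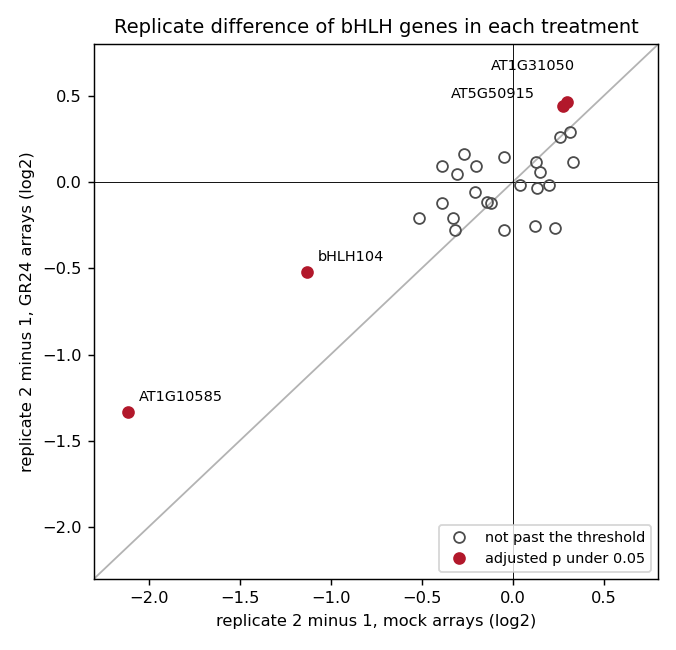
Replicate 2 minus replicate 1 (log2) of the 27 bHLH genes among mock arrays (horizontal) and among GR24 arrays (vertical), with the line of equality in grey. AT1G10585 and bHLH104 lie far to the lower left, at -2.12 and -1.33 and at -1.13 and -0.52, while AT5G50915 and AT1G31050 lie to the upper right.

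AT1G31050 was higher in replicate 2 by 0.38 ± 0.10 (adjusted p = 0.0391 in limma), 1.30-fold, and its dimmer probe set by 0.37 ± 0.13 (adjusted p = 0.0842 in limma). The call of AT1G31050 was lost with an offset of 16 and with its dimmer probe set. AT5G50915 was higher in replicate 2 by 0.36 ± 0.10 (adjusted p = 0.048 in limma), with 0.28 among mock and 0.44 among GR24 arrays. Its call between replicates was lost with repeated quantile normalization and with centring on the median. The GR24 arrays of AT5G50915 lay below both mock arrays, and its difference with GR24 was larger in size than that between replicates. As this gene was chosen with its fall known, setting the 2 differences side by side is no test.

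Iron genes other than bHLH104 did not all share its replicate difference. AT1G47400, which encodes an IRON MAN peptide that promotes iron uptake, had 8.37 and 7.16 with mock and 7.90 and 7.51 with GR24. It was lower in replicate 2 by -0.80 ± 0.17 (adjusted p = 0.0175 in limma), and like bHLH104 it was lower with GR24 in pair 1 (-0.47) and higher in pair 2 (0.35). Neither bHLH34 (-0.05 ± 0.12) nor bHLH115 (0.01 ± 0.10) passed between replicates, and PYE differed by -0.20 ± 0.10 without passing. Among the 5 measured genes of the iron list, 1 passed between replicates, where 16.7% of all probe sets did.

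**Figure D5:**
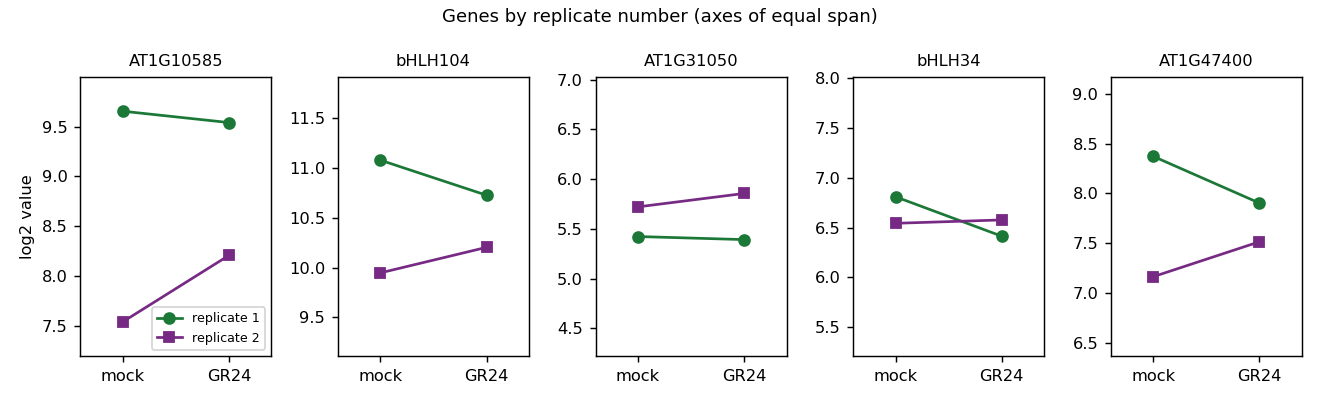
Log2 values on each array of 4 bHLH genes and of AT1G47400, with lines that join the arrays of one replicate number and panels of equal span. AT1G10585, bHLH104 and AT1G47400 have replicate 1 above replicate 2, AT1G31050 has the reverse, and the lines of bHLH34 cross.

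Root markers also differed between the replicates. Of the 9 measured, 4 were higher and 1 lower in replicate 2, against 8.14% and 8.59% of all probe sets. Their summed linear level was 1067 and 1104 on the mock arrays and 1203 and 1071 on the GR24 arrays. The sum weighs AT5G17820 most, the brightest of them on every array. That gene was the 1 lower in replicate 2, by -0.54 ± 0.10, so the sum does not show the 4 that were higher. With GR24 0 of the 9 passed in limma, 2 having an unadjusted p under 0.05, against 7.47% of all probe sets. The 2 shoot markers summed to 13358 and 16068 with mock and 13970 and 15747 with GR24. The part of these markers in the replicate differences of bHLH genes was not tested.

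Expansins loosen cell walls during growth and lie among the genes that group XII factors can raise. Of 34 expansin genes 17 were measured, and 0 passed with GR24 in limma, with 2 at an unadjusted p under 0.05, against 7.47% of all probe sets. Their median difference was -0.01. In both pairs 7 were lower and 7 higher, against 23.3% and 28.7% of all probe sets. The pairs thus had the same sign for 82.4% of them, against 52% of all probe sets. EXPA8 had the smallest p, at 8.62 and 8.40 with mock and 7.72 and 8.01 with GR24. Both its GR24 arrays lay below both mock arrays, a pattern of 10.2% of all probe sets. Its difference of -0.64 ± 0.13 did not pass (adjusted p = 0.13 in the paired limma model). It was the 1 expansin with that pattern. The reverse, found in 12.9% of all probe sets, was also seen for 1 expansin, EXPA16. A link between AT5G50915 and the expansins was not tested. Between replicates 8 expansins passed, all higher in replicate 2, where 8.14% of all probe sets were higher.

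The lists of helix-loop-helix partners that lack DNA binding, 13 genes, and of blue light and brassinosteroid signalling, 23 genes, had no member with a probe set of its own and are not analysed here.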

How the data were processed

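The deposited values are log2 probe set summaries of single-channel arrays, which the authors made with RMA, as the submitters' processing notes record. Its version is not given in the sources used here. The method adjusts background, brings arrays to one distribution and summarises each set's probes, and differences between dim probe sets can be noisy. Of 22810 probe sets, 64 controls were left out. The probe table gave 13513 of the rest 1 gene, 503 several, and did not list 8730.

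Tests ran in R 4.3.3 with limma 3.58.1 on all 22746 probe sets, with treatment and replicate number as terms. A maximum likelihood fit gave the prior variance (prior SD 0.107). The procedure was checked on data simulated from that same prior, so the check cannot show that the prior holds for these arrays. The pairing comes from the series text. Deviations of same-numbered arrays from their group means correlated at 0.712 across probe sets. Nothing separates cultures within a preparation, so p-values reflect only how these arrays vary.

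The members, lists, prior and tests were chosen with earlier results of these data known. Role groups mix numbered family subgroups, such as XII and X, with groupings by function, such as jasmonate or root hair. Another 12 genes were placed in none of these. Genes were named by rule: the gene the list was built around and its role group, calls, up to 10 genes in each direction with the same sign in both pairs by p, the 6 widest gaps between pairs, and the 10 smallest p between replicates. Related lists gave calls and the gene with the smallest p. Other genes were named after their values were seen.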

Additional observations from a re-analysis of the deposited data

How the results depend on the processing

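The number of arrays, 2 per group, limits every value. Without pairing, 0 bHLH genes were called with GR24 in limma, with either prior (1 had an unadjusted p under 0.05), and AT5G50915 kept its difference of -0.80 with an adjusted p of 1. No probe set at all was called there (341 or 351 at an unadjusted p under 0.05, depending on the prior), so this count of 0 is not particular to the family. With an offset of 16 the count was 0 (2 at an unadjusted p under 0.05) and AT5G50915 was at -0.68. When 1 array at a time was dropped and pairing given up, where a lone array is assumed to vary like the other group, the count was 0 each time (0 to 2 at an unadjusted p under 0.05). AT5G50915 was then at -1.02 without GR24 replicate 2, -0.58 without GR24 replicate 1, -0.94 without mock replicate 1 and -0.66 without mock replicate 2. Within single pairs, with no test, it was -0.88 and -0.71. The other settings with pairing, which were limma's default prior, trend and robust moderation, repeated quantile normalization, median centring, no dim probe sets, the other probe set and an adjusted p under 0.1, each called AT5G50915 alone. Between replicates the count was 7 at an adjusted p under 0.1 and 3 to 6 otherwise. For GR24 minus mock, AT1G10610 changed sign with centring (-0.0031), near 0. In that contrast the other 19 named genes passed under no setting where tested. They kept the sign of their mean in the settings that used all 4 arrays. Within single pairs, genes with opposite signs in the pairs did not keep it, such as bHLH104 (-0.35 in pair 1 and 0.26 in pair 2).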
